A study of Mus musculus with 12 samples.

Results

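The 8 genes described here encode the cathepsins of the macrophage lysosome: Ctsa, Ctsb, Ctsc, Ctsd, Ctsh, Ctsl, Ctss and Ctsz. They were chosen by symbol, and they are 8 of the 16516 gene symbols measured by RNA-seq in bone marrow-derived macrophages of mice. The macrophages were labelled MGMT KO (a knockout of Mgmt, a DNA repair enzyme that takes alkyl groups off guanine) or Wild-type (WTfl/fl), a name for unrecombined floxed alleles. Cells of each genotype received DMXAA, an agonist of STING that acts on the mouse protein, or DMSO, its solvent, for 24 h; the series text gives the DMXAA dose as 10 mg/ml. The 4 groups were therefore KO with DMXAA, WT with DMXAA, KO with DMSO and WT with DMSO, with 3 libraries in each and 12 in all, and every library carried the same batch label. Neither a Cre driver, nor the age or sex of the mice, nor whether the 3 libraries of a group came from separate mice is given in the labels, so p-values measure only the spread between these libraries, which may be technical.

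Cathepsins are proteases that are made as inactive proenzymes, tagged with mannose 6-phosphate in the Golgi, carried to endosomes and lysosomes, and activated there in acid. Ctsb, Ctsc, Ctsh, Ctsl, Ctss and Ctsz are cysteine proteases of the papain family, Ctsd is an aspartic protease and Ctsa a serine carboxypeptidase. In macrophages they break down engulfed and worn-out protein, trim the invariant chain that occupies MHC class II, and cut endosomal Toll-like receptors into their active form, while STING signalling leads through TBK1 and IRF3 to type I interferon.

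The bases before the RefSeq start are shown for the 3 members that changed most under DMXAA, Ctsc, Ctsz and Ctss. Short stretches near the start are shown for Ctsd, the 1 member called lower in WT in the authors' scaling of the counts. The sequences are from RefSeq on GRCm38.p6, 5′ to 3′ on the strand of the gene, with capitals on each motif match. The motifs searched on both strands were the E-box CACGTG, the 10-base element bound by the lysosomal regulator TFEB (the same E-box with GT before and AC after it), the interferon-stimulated response element ISRE (GAAA and GAAA with 2 bases between), the STAT element GAS (TTC and GAA with 3 bases between), a PU.1 core (GAGGAAGT) and an ETS-IRF composite (GGAA and GAAA with 2 bases between, which can overlap an ISRE). For Ctss, Ctsc and Ctsz the 250 bases up to the start are given, at chr3:95526536-95526785 on the + strand, chr7:88277835-88278084 on the + strand and chr2:174439040-174439289 on the - strand.
Ctss: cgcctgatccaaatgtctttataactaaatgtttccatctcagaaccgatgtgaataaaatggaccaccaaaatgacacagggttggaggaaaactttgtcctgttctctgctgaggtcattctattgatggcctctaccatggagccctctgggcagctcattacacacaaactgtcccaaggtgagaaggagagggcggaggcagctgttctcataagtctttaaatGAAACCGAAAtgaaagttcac
Ctsc: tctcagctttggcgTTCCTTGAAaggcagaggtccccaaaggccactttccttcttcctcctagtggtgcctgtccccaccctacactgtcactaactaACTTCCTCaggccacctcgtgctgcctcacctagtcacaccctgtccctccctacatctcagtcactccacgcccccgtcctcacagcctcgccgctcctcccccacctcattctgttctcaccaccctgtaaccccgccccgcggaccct
Ctsz: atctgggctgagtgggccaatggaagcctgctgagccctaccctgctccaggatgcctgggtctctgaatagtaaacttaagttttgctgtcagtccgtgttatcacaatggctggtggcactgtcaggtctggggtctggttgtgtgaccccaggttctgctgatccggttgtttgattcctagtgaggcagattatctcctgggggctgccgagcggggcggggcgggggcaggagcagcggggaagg
For Ctsd, 30 bases are given round each of 2 E-boxes on the - strand of chromosome 7, at chr7:142388048-142388077 (distal) and chr7:142387908-142387937 (proximal, all 30 bases in an exon of Ctsd in GENCODE).
Ctsd distal: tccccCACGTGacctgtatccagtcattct
Ctsd proximal: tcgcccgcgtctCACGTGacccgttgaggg

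Ctss held 1 ISRE match, which began 21 bases before the start. Ctsc held a GAS match 236 bases and a PU.1 core 151 bases before its start, and the window of Ctsz held no match to these letters. The E-boxes of Ctsd began 245 and 98 bases before its RefSeq start, but GENCODE places the start of the gene farther upstream, so that the distal one began 34 bases before the GENCODE start and the proximal one 113 bases inside the gene. Among the windows not printed, those of Ctsa and Ctsl each held an E-box that lies inside the gene in GENCODE: in Ctsa 12 bases before the second of its 2 RefSeq starts and 888 bases past the GENCODE start, and in Ctsl 236 bases before its RefSeq start and 134 bases past the GENCODE start. Ctsb and Ctsh had no promoter entry and were not searched. Among the member windows searched, none held the 10-base TFEB element or the ETS-IRF composite. Across 32851 mouse promoter windows of the same length, 6.02% held the E-box, 0.240% the 10-base TFEB element, 2.98% the ISRE, 7.02% the GAS, 2.44% the PU.1 core and 2.30% the ETS-IRF composite. A match describes letters in a window and is not a site shown to be bound.

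Depth in listed genes was 79.5 to 98.1 M (mega) reads per library, so each member was counted at 6784 reads or more in every library. The knockout label was checked on Mgmt, which was lower in KO but not absent. Mgmt had 48.1, 59.4 and 32.8 normalized counts in KO DMXAA libraries and 111, 83.2 and 105 in WT DMXAA libraries, and 118, 131 and 178 in KO DMSO libraries against 248, 233 and 269 in WT DMSO libraries, with log2 differences of -1.11 and -0.83. All 10 interferon-stimulated check genes rose under DMXAA in both genotypes, where 33.7% of all genes tested rose in KO and 31.7% in WT. The 10 macrophage markers were all present, with a summed level of 9678 to 9757 reads per M reads in KO DMXAA, 11931 to 12167 in WT DMXAA, 17101 to 17927 in KO DMSO and 21025 to 21504 in WT DMSO, so this sum was lower under DMXAA than under DMSO and lower in KO than in WT under each treatment. Lyz2, lysozyme, made up most of the gap between genotypes: without it the other 9 summed to 7527 to 7647 in KO DMXAA, 8020 to 8068 in WT DMXAA, 10364 to 10529 in KO DMSO and 10292 to 10574 in WT DMSO, so that the genotypes overlapped under DMSO. By limma 5 of the 10 were lower in KO and the other 5 did not pass, under each treatment. Of all genes tested, 9.58% were lower in KO under DMSO and 10.8% under DMXAA. Not every marker followed the lower sum under DMXAA: against DMSO, 2 of the 10 rose and 8 fell in KO, and 2 rose and 6 fell in WT. Of all genes tested, 32.9% fell in KO and 31.1% in WT, beside the shares that rose given above. Each of the 5 lists for neutrophils and progenitors, dendritic cells, stromal cells, lymphocytes, and mast cells and basophils summed to at most 7.90 reads per M reads in any library; the neutrophil and progenitor sum was 0.774 to 0.834 in KO DMXAA, 2.72 to 3.09 in WT DMXAA, 0.766 to 1.30 in KO DMSO and 5.52 to 7.90 in WT DMSO. The dendritic cell sum was 5.51 to 6.71 in KO DMXAA, 5.73 to 5.80 in WT DMXAA, 0.586 to 0.689 in KO DMSO and 0.277 to 1.02 in WT DMSO; 3 of its 7 genes were tested under DMXAA and all 3 rose in both genotypes, while Cd209a and Siglech were at 0 in every DMXAA library. Elane was not listed in any table, and 1 to 3 of the other neutrophil markers were at 0 in every library of a group. The part of these shifts in the results below was not tested, and in bulk RNA fewer cells of a type and less RNA per cell cannot be told apart.

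Together the 8 cathepsins took 3.71% ± 0.027 of the reads of a library in KO DMXAA, 3.36% ± 0.040 in WT DMXAA, 3.36% ± 0.051 in KO DMSO and 3.51% ± 0.092 in WT DMSO (SD, n = 3 each). Ctsb, Ctsd and Ctss carried most of these reads and ranked between 3 and 12 among 16516 symbols by reads in each group. Ctsc, which removes dipeptides from the N-terminus of proteins and activates serine proteases of granules, was the lowest member, at rank 514 in KO DMXAA, 584 in WT DMXAA, 2080 in KO DMSO and 1702 in WT DMSO.

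**Figure D1:**
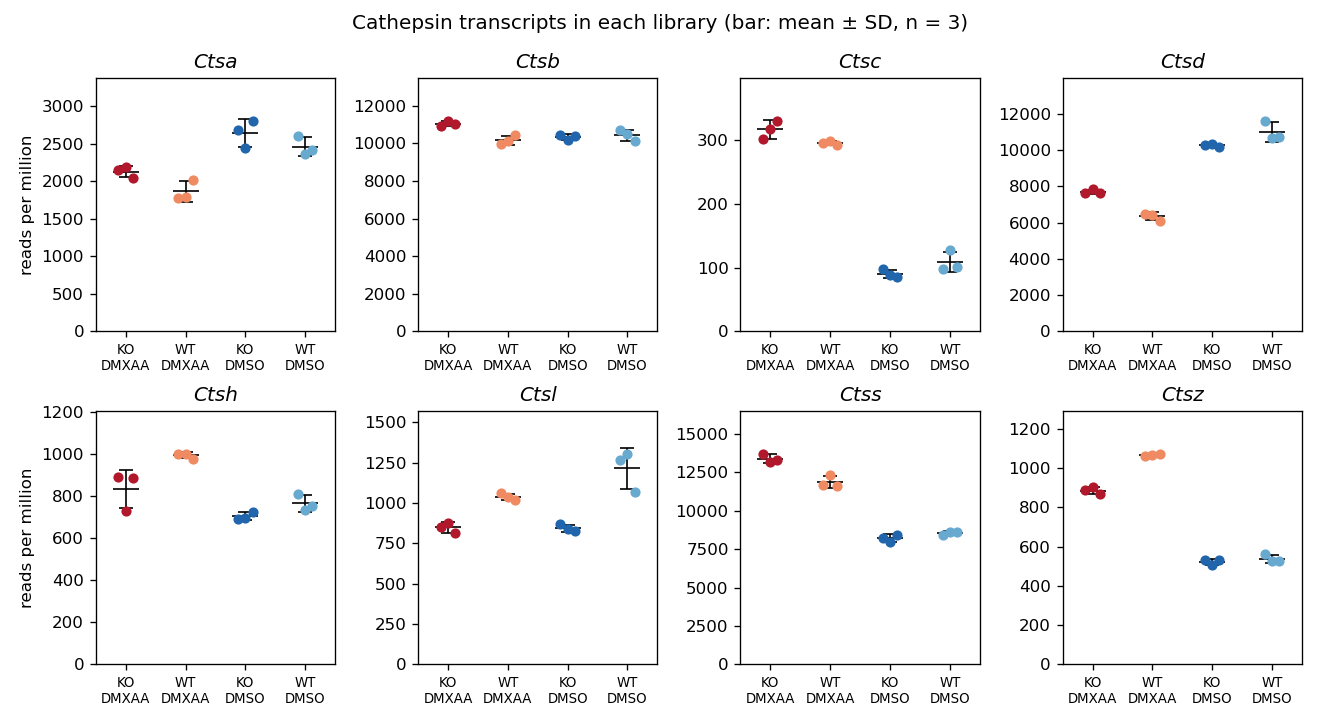
Reads per M reads in listed genes (y axes, linear, from 0) for each of the 8 genes, 1 point per library, with bars for the mean ± SD of 3 libraries per group. Ctsc, Ctss and Ctsz stand higher in both DMXAA groups than in both DMSO groups, Ctsd and Ctsa stand lower on this scale, and Ctsl is highest in WT DMSO.

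To set genes of different length side by side, levels were taken as reads per kb of merged exon per M reads. On this scale Ctss, an elastin- and invariant chain-cleaving enzyme that stays active at neutral pH, was the highest member in each group, at 9852 ± 223 in KO DMXAA, 8739 ± 289 in WT DMXAA, 6051 ± 181 in KO DMSO and 6307 ± 79.5 in WT DMSO. Ctsd, a broad endoprotease of the lysosome, came next, at 3269 ± 52.7 in KO DMXAA, 2694 ± 93.8 in WT DMXAA, 4368 ± 32.6 in KO DMSO and 4679 ± 228 in WT DMSO. Ctsb, an endoprotease that also removes dipeptides from the C-terminus, came after Ctsd, at 1828 ± 23.2, 1682 ± 39.0, 1707 ± 23.8 and 1724 ± 48.6 in the same order of groups. The libraries of Ctss, Ctsd and Ctsb did not overlap within any group, so the order of these 3 was the same in all 4.

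The order below them differed between treatments. Ctsz, a carboxypeptidase, stood above Ctsa under DMXAA, with 614 ± 13.5 in KO DMXAA and 740 ± 3.92 in WT DMXAA, against 362 ± 10.3 in KO DMSO and 372 ± 14.0 in WT DMSO. Ctsa, whose protein also shields beta-galactosidase and neuraminidase in the lysosome, stood above Ctsz under DMSO, with 451 ± 16.3 in KO DMXAA, 395 ± 28.5 in WT DMXAA, 560 ± 39.3 in KO DMSO and 522 ± 26.8 in WT DMSO. Ctsh, an aminopeptidase, had 186 ± 20.3 in KO DMXAA, 221 ± 3.14 in WT DMXAA, 157 ± 3.91 in KO DMSO and 170 ± 9.03 in WT DMSO. Ctsl, an endoprotease, had 131 ± 5.05 in KO DMXAA, 160 ± 2.999 in WT DMXAA, 130 ± 3.32 in KO DMSO and 187 ± 19.4 in WT DMSO. In WT DMSO the libraries of Ctsl and Ctsh overlapped, so these neighbours did not differ beyond their spread. Ctsc was last in each group, at 54.5 ± 2.46 in KO DMXAA, 50.9 ± 0.590 in WT DMXAA, 15.5 ± 1.12 in KO DMSO and 18.7 ± 2.76 in WT DMSO. The distance from the highest to the lowest member in WT DMSO was 337-fold per kb of merged exon and 145-fold per kb of the principal transcript, and with those lengths Ctss, Ctsd and Ctsb kept their order while Ctsa, Ctsh, Ctsl and Ctsz changed places among themselves.

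Under DMXAA the mixture of cathepsin transcripts tilted to Ctss. Of the summed level per kb, Ctss made up 60.1% ± 0.745 in KO DMXAA and 59.5% ± 0.727 in WT DMXAA, against 45.3% ± 0.613 in KO DMSO and 45.1% ± 1.33 in WT DMSO. Ctsd made up 20.0% ± 0.448 in KO DMXAA and 18.4% ± 0.575 in WT DMXAA, against 32.7% ± 0.782 in KO DMSO and 33.5% ± 1.06 in WT DMSO. These shares do not depend on how libraries are scaled against each other, and for both genes the DMXAA and DMSO groups lie apart by far more than their SDs. The share of Ctsz was 3.75% ± 0.084 in KO DMXAA and 5.04% ± 0.122 in WT DMXAA, against 2.71% ± 0.034 in KO DMSO and 2.66% ± 0.054 in WT DMSO.

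**Figure D2:**
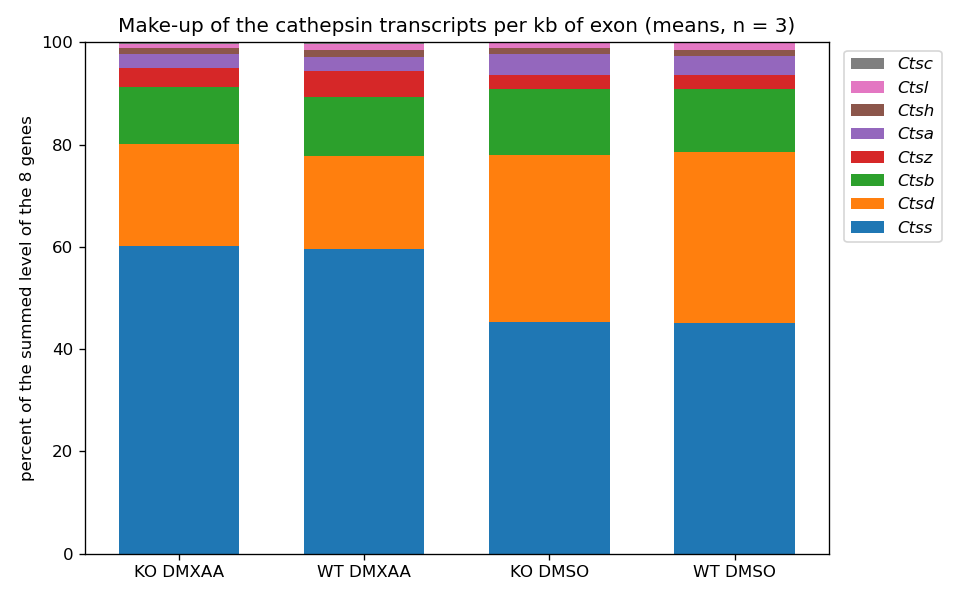
Stacked bars of the mean percent of the summed level (reads per kb of merged exon per M reads) that each of the 8 genes made up, over 3 libraries per group. Ctss takes about 60% under DMXAA and about 45% under DMSO, while the band of Ctsd narrows under DMXAA.

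How the cathepsins answered DMXAA was tested in each genotype on the deposited normalized counts, with limma on a log2 scale with a pseudocount of 1. A call needs a p below 0.05 after Benjamini-Hochberg adjustment over all genes tested. The log2 values are DMXAA over DMSO or KO over WT and carry the standard error (SE) of the fit, and every adjusted p below is from limma. In KO cells 6 of 8 members rose and the other 2 did not pass, where 66.6% of the 12704 genes tested were called, 33.7% higher and 32.9% lower. In WT cells 5 rose, 1 fell and 2 did not pass, where 62.8% of 12752 genes were called, 31.7% higher and 31.1% lower. The number of members called was thus near the share of all genes in both genotypes. The median log2 change of the members was 0.56 in KO and 0.49 in WT, beside 0.00 for all genes in each. Libraries did not overlap for 6 members in KO and 6 in WT, where 71% and 68.8% of genes did not overlap.

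These directions rest on the deposited scaling, which centres the median gene. When libraries were brought to the same total instead, the median log2 change of all genes moved to -0.39 in KO and -0.32 in WT, and 20.3% of called genes were higher in KO and 22.4% in WT, against 50.6% and 50.5% as deposited. With the same upper quartile that share was 38.6% in KO and 39.2% in WT.

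Among the enzymes that trim ends, Ctsc rose most. Ctsc had 31.1, 33.1 and 34.5 k normalized counts (k, kilo) in KO DMXAA libraries, against 7.73, 6.90 and 6.85 k in KO DMSO libraries. In the WT table Ctsc had 28.7, 29.4 and 28.7 k in DMXAA libraries, against 7.75, 9.91 and 7.94 k in DMSO libraries. The treated libraries lie far above the DMSO libraries in both genotypes, with no overlap. The log2 change of Ctsc was 2.20 ± 0.058 in KO (4.60-fold, adjusted p = 2.46e-10) and 1.77 ± 0.083 in WT (3.41-fold, adjusted p = 4.33e-08), and 1.81 and 1.45 with the same library total.

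Ctsz was the next. Its normalized counts were 91.6, 94.4 and 90.4 k in KO DMXAA libraries, against 42.1, 39.6 and 42.9 k in KO DMSO libraries. In WT cells Ctsz had 103, 105 and 106 k under DMXAA, against 44.3, 40.9 and 41.3 k under DMSO. Every treated library was above every DMSO library of its genotype, and the log2 change was 1.15 ± 0.042 in KO (adjusted p = 2.98e-09) and 1.31 ± 0.043 in WT (adjusted p = 2.99e-09). With the same total it was 0.76 in KO and 0.99 in WT.

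Ctsh had 92.1, 76.3 and 92.3 k normalized counts in KO DMXAA libraries, against 55.1, 54.6 and 58.5 k in KO DMSO libraries. For WT the Ctsh values were 97.2, 98.7 and 96.1 k under DMXAA, against 64.2, 57.1 and 59.4 k under DMSO. KO DMXAA replicate 2 lies below the other treated KO libraries and still above the DMSO libraries. Ctsh rose by 0.63 ± 0.070 in KO (adjusted p = 1.87e-05) and by 0.69 ± 0.049 in WT (adjusted p = 9.08e-07), and by 0.24 and 0.38 with the same total. Ctsa did not pass in either genotype. Its normalized counts were 222, 229 and 214 k in KO DMXAA libraries and 212, 191 and 226 k in KO DMSO libraries, and 172, 177 and 198 k in WT DMXAA libraries and 206, 184 and 190 k in WT DMSO libraries. The groups of Ctsa overlapped, with log2 changes of 0.08 ± 0.059 in KO (adjusted p = 0.256) and -0.08 ± 0.062 in WT (adjusted p = 0.260), and the same total turned the first to -0.31 and took the second to -0.40, both then called. In KO Ctsa was called higher without KO DMSO replicate 3 (0.13, adjusted p = 0.0484) and with a replicate block by library numeral (0.13, adjusted p = 0.0105), and in WT called lower with the same upper quartile (-0.19). Ctsa shares 495 exon bases with Pltp on the opposite strand, which had up to 152428 reads in a library; the libraries were strand-specific, and whether counting used the strand is not given in the sources used here.

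Among the endoproteases Ctss rose most. Ctss had 1416, 1373 and 1388 k normalized counts in KO DMXAA libraries, against 655, 624 and 681 k in KO DMSO libraries. WT cells had 1131, 1214 and 1143 k counts of Ctss under DMXAA, against 668, 674 and 677 k under DMSO. No treated library overlapped a DMSO library. The log2 change was 1.09 ± 0.042 in KO (2.13-fold, adjusted p = 5.12e-09) and 0.79 ± 0.042 in WT (1.73-fold, adjusted p = 1.24e-07), and 0.70 and 0.47 with the same total.

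Ctsb had 1130, 1172 and 1151 k normalized counts in KO DMXAA libraries, against 829, 797 and 838 k in KO DMSO libraries. Its WT values were 966, 999 and 1025 k under DMXAA, against 846, 817 and 796 k under DMSO. Treated libraries were higher without overlap in both genotypes on this scale, but the separation is narrower than for Ctss. Ctsb rose by 0.49 ± 0.038 in KO (adjusted p = 1.37e-06) and by 0.28 ± 0.044 in WT (adjusted p = 2.81e-04); with the same total the change was 0.10 in KO, still called, and -0.04 in WT, no longer called. Ctsb shares 774 exon bases with Fdft1 on the opposite strand, which had up to 11826 reads.

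Ctsl had 88.0, 91.9 and 85.1 k normalized counts in KO DMXAA libraries, against 68.9, 65.9 and 66.5 k in KO DMSO libraries. In WT the Ctsl counts were 103, 102 and 100 k under DMXAA, and 100, 102 and 84.3 k under DMSO, so that the WT groups overlapped and the KO groups did not. Ctsl rose by 0.40 ± 0.041 in KO (adjusted p = 1.09e-05), which the same total reduced to 0.01 with no call, and its change in WT was 0.10 ± 0.067 (adjusted p = 0.236), which the same total turned to -0.22, then called. Ctsl shares 1742 exon bases with Gm47123 on the opposite strand and 395 with the pseudogene Gm49230 on the same strand. Neither was among the listed genes, and the part of these overlaps in the values was not tested.

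Ctsd, the aspartic protease, was the single member called lower on the deposited scale. Ctsd had 787, 818 and 794 k normalized counts in KO DMXAA libraries and 816, 811 and 821 k in KO DMSO libraries, which overlapped. In WT cells Ctsd had 630, 633 and 598 k under DMXAA, against 920, 831 and 844 k under DMSO, with a wide gap. The log2 change was -0.03 ± 0.036 in KO (adjusted p = 0.492) and -0.48 ± 0.050 in WT (adjusted p = 1.71e-05). With the same total these were -0.42, then called, and -0.80. With the same upper quartile the change in KO was -0.16, also called. Ctsd shares 808 exon bases with Gm49369, a protein-coding gene on the same strand that was not among the listed genes. The part of this overlap in the values was not tested.

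**Figure D3:**
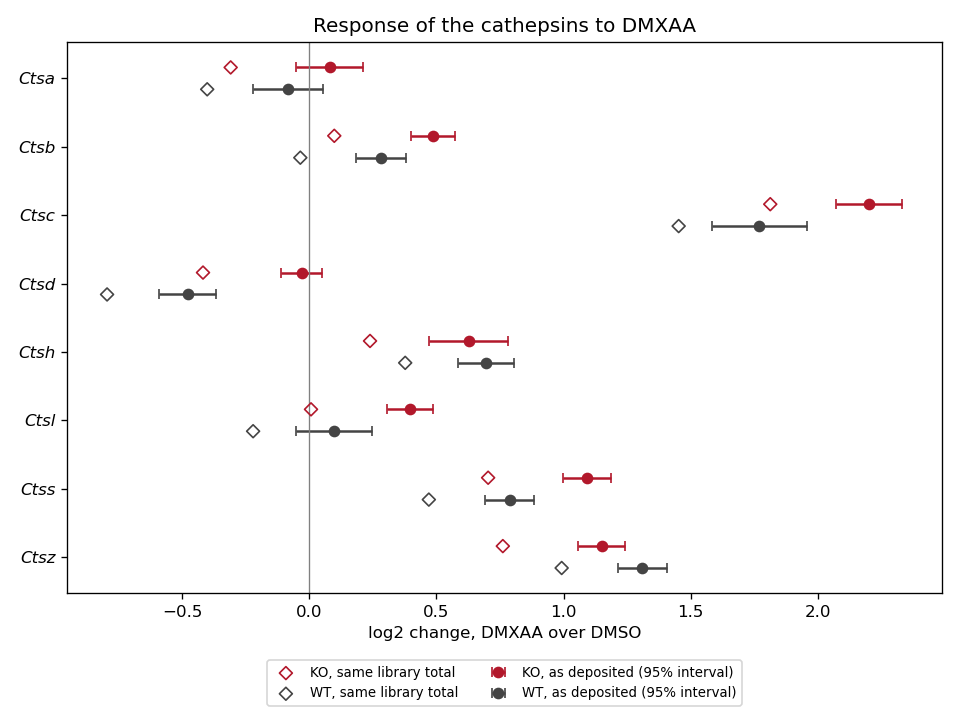
Log2 change under DMXAA over DMSO (x axis) for each gene, with KO above WT; filled circles are the limma estimates on the deposited scale with 95% intervals and open diamonds the estimates with libraries at the same total. Ctsc, Ctsz and Ctss lie right of 0 on both scales, and Ctsa in KO and Ctsb and Ctsl in WT change side.

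Against WT, KO cells under DMSO differed in 1 of 8 members, Ctsl, where 16.6% of 12814 genes were called, 7.04% higher and 9.58% lower. Ctsl had 75.0, 71.9 and 72.3 k normalized counts in KO DMSO libraries, against 112, 114 and 94.3 k in WT DMSO libraries. Each KO library lies below each WT library, and WT DMSO replicate 3 is the lowest of the WT libraries. The log2 difference of Ctsl was -0.54 ± 0.068 (0.685-fold, adjusted p = 2.93e-04). Libraries also did not overlap for Ctsc, Ctsd, Ctsh and Ctss, each lower in KO, so that 5 members did not overlap, where 34.7% of genes did not. None of those 4 passed: the log2 difference of Ctsc was -0.29 ± 0.090 (adjusted p = 0.0518), of Ctsh -0.14 ± 0.054 (adjusted p = 0.0980), of Ctsd -0.12 ± 0.051 (adjusted p = 0.129) and of Ctss -0.09 ± 0.047 (adjusted p = 0.261). Without WT DMSO replicate 2, the highest library, the difference of Ctsc was -0.17 (adjusted p = 0.154), and without WT DMSO replicate 1 it was -0.35 and called. Ctsc was called by edgeR, by DESeq2, with a pseudocount of 10, with the same upper quartile and in the authors' deposited table, with an adjusted p of 0.0136 in that table. The median over the 8 members was -0.10, beside 0.01 for all genes.

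Under DMXAA all 8 members differed between KO and WT, 5 of them higher in KO and 3 lower, where 21.5% of 12499 genes were called, 10.7% higher and 10.8% lower. The sizes were small: the log2 differences lay between -0.25 and 0.32. Each member's KO libraries stood apart from its WT libraries, where 37.6% of genes did not overlap. Among all called genes the share that was higher in KO was 49.7% as deposited and 34.3% with the same total; the direction of each member was the same under both.

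Ctsd differed most. It had 705, 731 and 710 k normalized counts in KO DMXAA libraries, against 583, 582 and 551 k in WT DMXAA libraries, a log2 difference of 0.32 ± 0.034 (1.25-fold, adjusted p = 9.63e-05). Ctsa had 199, 205 and 191 k in KO DMXAA libraries, against 159, 162 and 183 k in WT DMXAA libraries, a difference of 0.24 ± 0.051 (adjusted p = 0.00762). Ctss had 1269, 1227 and 1241 k in KO DMXAA libraries, against 1046, 1115 and 1054 k in WT DMXAA libraries, a difference of 0.22 ± 0.035 (adjusted p = 0.00145). In these genes the lowest KO library is above the highest WT library. Ctsb was higher in KO by 0.16 ± 0.033 (adjusted p = 0.00559) and Ctsc by 0.14 ± 0.042 (adjusted p = 0.0331). The call for Ctsc held in 6 of 13 alternatives and was lost with the same total, at a difference of 0.10, with the same upper quartile, at 0.12, and without any 1 of KO replicates 2 and 3 or WT replicates 1, 2 and 3, at 0.11 to 0.15.

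The members lower in KO were Ctsl, Ctsz and Ctsh. Ctsl had 78.9, 82.1 and 76.0 k normalized counts in KO DMXAA libraries, against 95.04, 93.7 and 92.6 k in WT DMXAA libraries, a log2 difference of -0.25 ± 0.036 (adjusted p = 7.99e-04). Ctsz had 82.1, 84.4 and 80.8 k in KO DMXAA libraries, against 95.4, 96.3 and 97.3 k in WT DMXAA libraries, a difference of -0.22 ± 0.032 (adjusted p = 6.76e-04). Both are separated by more than the spread of either group. Ctsh had 82.5, 68.2 and 82.6 k in KO DMXAA libraries, against 89.9, 90.7 and 88.6 k in WT DMXAA libraries, a difference of -0.21 ± 0.064 (adjusted p = 0.0384). KO replicate 2 is far below the other libraries for Ctsh; without it the difference was -0.12, still called (adjusted p = 0.0410). The call was lost without any 1 of WT replicates 1, 2 and 3 (-0.20 to -0.22) and with no filter on low values.

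**Figure D4:**
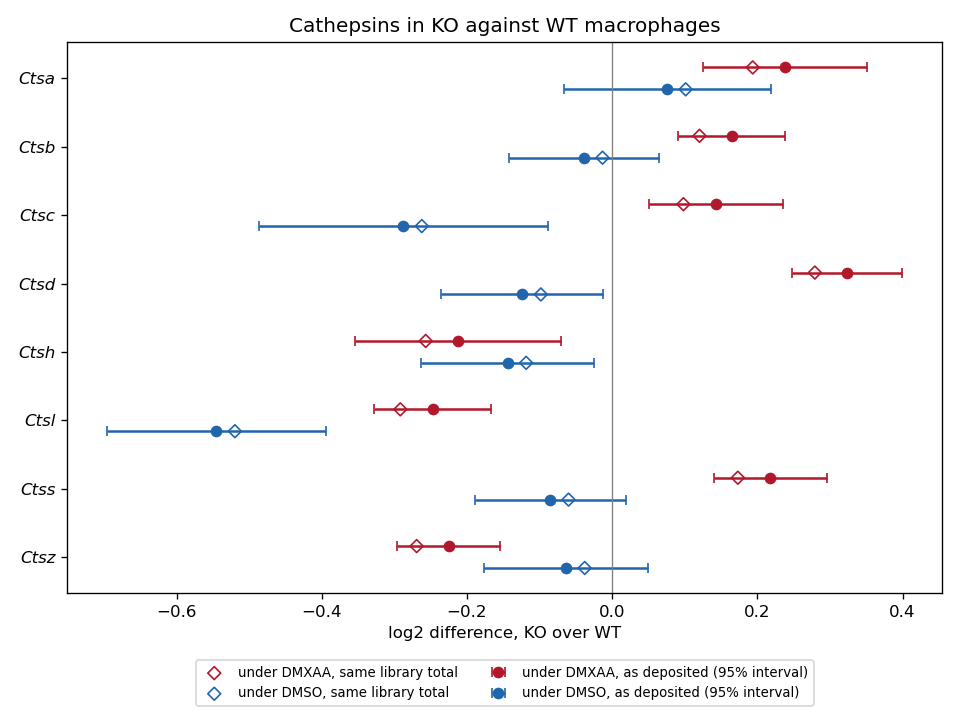
Log2 difference of KO over WT (x axis) for each gene, under DMXAA above and under DMSO below; filled circles are limma estimates on the deposited scale with 95% intervals and open diamonds the estimates with libraries at the same total. Under DMXAA Ctsa, Ctsb, Ctsc, Ctsd and Ctss lie right of 0 and Ctsh, Ctsl and Ctsz left of it, while under DMSO Ctsl alone was called.

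Whether the 2 genotype differences themselves differ was tested over 12 libraries as the interaction: the log2 response to DMXAA in KO less the log2 response in WT. It was called for 5 of 8 members, each with the higher log2 response in KO, where 8.6% of 12729 genes were called, 5.37% with a higher and 3.24% with a lower value. Of the called genes 62.4% were higher as deposited and 39.2% with the same total. Ctsd had the largest value, 0.45 ± 0.059 (adjusted p = 2.82e-04), followed by Ctsc with 0.43 ± 0.112 (adjusted p = 0.0273), Ctss with 0.30 ± 0.055 (adjusted p = 0.00340), Ctsl with 0.30 ± 0.084 (adjusted p = 0.0416) and Ctsb with 0.20 ± 0.053 (adjusted p = 0.0280). For Ctsz it was -0.16 ± 0.057 (adjusted p = 0.106), for Ctsa 0.16 ± 0.091 (adjusted p = 0.333) and for Ctsh -0.07 ± 0.092 (adjusted p = 0.746), none of them called. The calls of Ctsd and Ctss held in 19 of 19 alternatives, those of Ctsc, Ctsb and Ctsl in 11, 9 and 7. With the same total the values of Ctsc (0.36, adjusted p = 0.0650), Ctsl (0.23, adjusted p = 0.112) and Ctsb (0.13, adjusted p = 0.0902) were no longer called, and Ctsz was called lower, at -0.23 (adjusted p = 0.0123). Without 1 library the count of members was 2 to 5, at 2 without KO DMSO replicate 2, KO DMXAA replicate 2, or WT DMXAA replicate 1 or 2, and at 3 without KO DMSO replicate 1 or 3, WT DMSO replicate 2, KO DMXAA replicate 3 or WT DMXAA replicate 3. A higher response in KO is not a higher level in KO. Ctsl was lower in KO under both treatments, at -0.54 under DMSO and -0.25 under DMXAA. Ctsc differed by -0.29 under DMSO, not called, and by 0.14 under DMXAA.

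Other signals moved with the genotype. The interaction of the interferon check genes was called with a higher value in 9 of 10 cases, where 5.37% of all genes were. Their median log2 value was 0.71, beside 0.00 for all genes. In KO under DMSO 9 of 10 were lower, where 9.58% of all genes were. Among them was Irf7, a transcription factor induced by interferon, at -1.98 ± 0.108. Under DMXAA 5 of the 10 were lower in KO and 1 higher, where 10.8% and 10.7% of all genes were. The higher one was Irf7, at 0.10 ± 0.032 (adjusted p = 0.0431). The part of these differences in the cathepsin values was not tested. Ctsd lies 5.25 Mb and Ctsc 48.6 Mb from Mgmt on chromosome 7, and the other 6 members lie on other chromosomes.

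Of 11 other cathepsin genes, 6 were in the tables and 4 were tested. Ctso and Ctsk stood nearest to the members, with 7.22 ± 0.0996 and 13.7 ± 0.161 reads per kb per M reads in KO DMXAA, 8.50 ± 0.252 and 16.3 ± 0.942 in WT DMXAA, 7.70 ± 0.0941 and 7.63 ± 0.856 in KO DMSO, and 7.16 ± 0.411 and 6.02 ± 0.862 in WT DMSO, below Ctsc in each group. Ctsk, the collagen-cleaving cathepsin of osteoclasts, rose by 1.24 ± 0.088 in KO and 1.76 ± 0.106 in WT under DMXAA, and had 2.17, 2.17 and 2.14 k normalized counts in KO DMXAA libraries, against 0.886, 0.822 and 1.05 k in KO DMSO libraries. Its interaction was -0.52 ± 0.146 (adjusted p = 0.0416), opposite in sign to that of Ctss and Ctsd. On the deposited scale Ctso rose by 0.30 ± 0.048 in KO and 0.57 ± 0.059 in WT, with an interaction of -0.27 ± 0.071 (adjusted p = 0.0279). Its level per kb per M reads was lower in KO DMXAA than in KO DMSO, 7.22 against 7.70, so its direction in KO turned on the scaling. Ctsf fell by 1.26 ± 0.097 on the log2 scale in KO and by 1.72 ± 0.128 in WT. Ctsg, a granule protease of neutrophils, and Ctsw, of lymphocytes, had at most 0.0514 reads per kb per M reads in any library.

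The cystatins and serpins, which block proteases, were on a list of 22 genes, of which 7 were tested in KO and 8 in WT. Under DMXAA 5 of 7 rose and 1 fell in KO, where 33.7% of all genes tested rose and 32.9% fell. In WT 6 of 8 rose and 1 fell, where 31.7% and 31.1% of all genes did. The median was 0.94 in KO and 0.63 in WT, beside 0.00 for all genes in each. Cst7, which encodes cystatin F, an inhibitor that acts inside endosomes and lysosomes with Ctsc among its targets, rose by 6.20 ± 0.151 in KO and 6.05 ± 0.131 in WT. It averaged 3155 ± 66.3 normalized counts in KO DMXAA libraries against 42.6 ± 9.52 in KO DMSO libraries, and 2539 ± 157 in WT DMXAA libraries against 37.6 ± 6.10 in WT DMSO libraries (SD, n = 3 each). Cstb, the cytosolic cystatin B, rose by 0.94 ± 0.039 in KO. Serpina3g, a serpin able to inhibit Ctsb, rose by 7.28 ± 0.305 in WT, and under DMXAA it was lower in KO by a log2 difference of -1.18 ± 0.126 (adjusted p = 1.02e-04). The interaction of Serpina3g was 1.31 ± 0.642 (adjusted p = 0.252) and not called, so a weaker response in KO was not shown. Serpinb9, known for blocking granzyme B and not a cathepsin, rose by 1.71 ± 0.080 in WT and was lower in KO under DMSO, at -0.69 ± 0.096. Of 7 tested, 3 were lower in KO under DMSO, where 9.58% of all genes were. Under DMXAA 4 were lower and 2 higher in KO, where 10.8% and 10.7% of all genes were.

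Genes of the machinery that sorts and processes lysosomal enzymes were called in both directions, near the share of all genes. Of 19 genes 6 rose and 7 fell in KO, where 33.7% of all genes tested rose and 32.9% fell. In WT 6 rose and 6 fell, where 31.7% and 31.1% of all genes did. The medians were -0.08 in KO and 0.03 in WT, beside 0.00 for all genes in each. Sort1, which encodes sortilin, a sorting receptor that can carry lysosomal enzymes without mannose 6-phosphate, fell by 3.87 ± 0.069 on the log2 scale in KO and by 4.34 ± 0.115 in WT. Lgmn, which encodes legumain, a protease that processes cathepsins, rose by 0.95 ± 0.040 in KO and 0.91 ± 0.041 in WT. Psap, the precursor of saposins, rose by 0.70 ± 0.046 in KO, and its interaction of 0.29 ± 0.064 (adjusted p = 0.0109) has the sign of those of Ctss and Ctsd. Under DMXAA 4 of the 19 were higher in KO than in WT and 4 lower, where 10.7% and 10.8% of all genes tested were.

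Of the proton pump that acidifies lysosomes, 18 of 19 subunit genes were tested. Of these 7 rose and 5 fell in KO, and 6 rose and 3 fell in WT, with medians of 0.05 and 0.06. Of all genes tested, 66.6% were called in KO and 62.8% in WT, with medians of 0.00. Atp6v0d2, a subunit found in osteoclasts and macrophages, fell by 1.34 ± 0.054 on the log2 scale in KO and by 1.97 ± 0.079 in WT, and was higher in KO than in WT under DMXAA at 0.76 ± 0.078 (adjusted p = 7.73e-05), while Tcirg1 rose by 1.08 ± 0.053 in KO and 0.98 ± 0.052 in WT. Among 12 genes for the MiT/TFE factors that switch on lysosomal genes and their regulators, 4 rose and 5 fell in KO, and 4 rose and 4 fell in WT. These counts stand beside the same shares of all genes. Flcn, folliculin, which controls the entry of these factors into the nucleus, fell by 0.48 ± 0.039 in KO and by 0.20 ± 0.044 in WT, with an interaction of -0.28 ± 0.055 (adjusted p = 0.00559).

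Partners and substrates of the cathepsins were tested in 15 of 21 cases under DMXAA. In KO 11 rose and 1 fell, where 33.7% of all genes tested rose and 32.9% fell. In WT 13 rose and 2 fell, where 31.7% and 31.1% of all genes did. The medians were 0.93 in KO and 1.02 in WT, beside 0.00 for all genes in each. Tlr9, a DNA receptor that cathepsins cleave, rose by 2.12 ± 0.059 in KO and 3.18 ± 0.101 in WT, with an interaction of -1.06 ± 0.121 (adjusted p = 9.17e-05). Grn, whose product progranulin is cut to granulins in lysosomes, rose by 1.38 ± 0.042 in KO and 1.26 ± 0.044 in WT. Cd74, the invariant chain that Ctss trims, was lower in KO than in WT under both treatments, at -0.76 ± 0.042 under DMXAA and -1.15 ± 0.088 under DMSO. H2-Aa, the MHC class II alpha chain, was lower in KO at -0.74 ± 0.065 under DMXAA and -0.78 ± 0.081 under DMSO.

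Across the 12 libraries the log2 values of Ctsc, Ctsh, Ctss and Ctsz ran together, with Pearson's r from 0.90 to 0.99 between pairs after scaling by edgeR's trimmed mean (TMM) and from 0.69 to 0.97 on reads per M reads. Ctsd ran against Ctsc and Ctsz, with r of -0.66 and -0.77 after TMM and -0.91 and -0.97 on reads per M reads. For Ctsa, Ctsb and Ctsl the relation to Ctsc, Ctsh, Ctss and Ctsz turned on the scaling. Ctsb had r of 0.83 to 0.98 with those 4 genes after TMM and -0.15 to 0.46 on reads per M reads. Ctsl had 0.45 to 0.61 after TMM and -0.27 to 0.17 on reads per M reads. Ctsa had -0.23 to 0.05 after TMM and -0.90 to -0.78 on reads per M reads. With Ctsd, Ctsa had r of 0.46 after TMM and 0.89 on reads per M reads. These are descriptions over 12 libraries that share treatment groups and depth. The genes most like a member after TMM scaling, of 10309 ranked, were Lamtor5 (r = 0.999), Pde7b and Ms4a6d for Ctsc, Tap2 (r = 0.999), Tnfsf10 and Keap1 for Ctsz, and Dennd1a (r = 0.997), Ddit3 and Tmem106a for Ctss. For Ctsb they were Tmem230 (r = 0.995), Vav1 and Ehbp1l1, and for Ctsh Zdhhc24 (r = 0.983), Srd5a3 and Tank. For Ctsd they were Jun (r = 0.964), Rgs18 and Sez6l2, for Ctsl Vim (r = 0.972), Cdk20 and Mcm10, and for Ctsa Dctn6 (r = 0.931), Kcnab2 and Wdfy4.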

How the data were processed

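Reads were aligned to mm10 with HISAT2 and counted with featureCounts, per the submitters' processing notes; no version or strand setting is given in the sources used here. Normalized counts, a signal for which each of 4 tables has its own scaling over 6 libraries, were deposited by the authors together with tables of log2 fold changes, a test statistic (a score, not used), p-values and adjusted p-values. The deposited signal divided by the smallest step of its library was a whole number within 0.01 for 100% of values; these reads were the input of the edgeR and DESeq2 alternatives and of levels per kb and per M (mega) reads.

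Each comparison was fitted within the table holding both groups with limma 3.58.1 (lmFit, eBayes with trend, two-sided) in R 4.3.3, on log2(normalized count + 1), for genes with a mean of at least 10; Benjamini-Hochberg adjustment ran over all genes tested and the threshold was 0.05. The 12-library interaction used the DMSO and DMXAA tables. The fit was tested on simulated data with changes larger than any genotype difference or interaction of the members, so that test does not bear on those calls. Alternatives were a pseudocount of 10, no filter, the same total, the same upper quartile, edgeR 4.0.16 (quasi-likelihood), DESeq2 1.42.0, a replicate block, and leaving out each library. Exon lengths and coordinates are from GENCODE vM21 on mm10, and promoters from RefSeq. The members and gene lists were chosen with earlier results of these data known. The text names the 8 members, Mgmt, the interferon check genes and, in each list, the 3 tested genes with the smallest p in a comparison, with values of the same gene in the other genotype or treatment beside them; Ctsg and Ctsw were named after their values were seen. The 3 genes most like each member had the highest Pearson correlation of log2 TMM-scaled reads, with a mean of at least 100 reads. With 79.5 to 98.1 M reads per library, each member had 6784 reads or more in every library. Counting error was not set against the spread of replicates.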

Additional observations from a re-analysis of the deposited data

Results flagged for a closer look

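In 5 of 8 members the response to DMXAA differed between the genotypes by the interaction over 12 libraries, tested with limma and adjusted over all genes. Of 12729 genes tested 8.6% were called, 5.37% with a higher and 3.24% with a lower value. On the log2 scale the difference, KO response minus WT response, was 0.447 for Ctsd, 0.430 for Ctsc, 0.303 for Ctss, 0.298 for Ctsl and 0.203 for Ctsb. On the deposited scale this sets a change of -0.03 in KO beside a fall of -0.48 in WT for Ctsd. For Ctsc, Ctss and Ctsb it sets a higher rise in KO (2.20, 1.09 and 0.49) beside a rise in WT (1.77, 0.79 and 0.28), and for Ctsl 0.40 in KO beside 0.10 in WT. With the same library total Ctsd fell in both genotypes, at -0.42 in KO and -0.80 in WT, both called. The responses in KO and WT were then 0.01 and -0.22 for Ctsl, and 0.10 and -0.04 for Ctsb. Those of Ctsc and Ctss were still rises, 1.81 and 1.45 for Ctsc and 0.70 and 0.47 for Ctss. The interaction calls for Ctsc, Ctsl and Ctsb were each lost with the same library total (0.36, 0.23 and 0.13) and without 1 or more single libraries, as given above. With the same total the interaction of Ctsz was called lower, at -0.23.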

How the results depend on the processing

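Of 584 alternative values, 523 kept their direction and their side of the threshold, 42 lost the call, 13 gained one and 6 changed direction. With the same total the DMXAA change of Ctsa in KO was -0.31, of Ctsb in WT -0.035 and of Ctsl in WT -0.22; with the same upper quartile Ctsa in KO was -0.047 and Ctsl in WT -0.011. The interaction of Ctsh was -0.12 to 0.023 without single libraries, positive without KO DMXAA replicate 2. Between KO and WT under DMSO 2 members were called with a pseudocount of 10, the same upper quartile, edgeR and DESeq2, against 1 in the reported fit, and 1 to 2 without single libraries; the second was Ctsc. In that comparison the count of all genes was 1399 to 1897 without single libraries, lowest without KO DMSO replicate 1, against 2129. The interaction was called for 3 members with no filter and for 3 with the same total (2 higher, 1 lower), against 5, and for 2 to 5 without single libraries. For all genes it was called 831 to 1112 times without single libraries, against 1095 in the reported fit, 8.6% of 12729. The distance from highest to lowest member was 101-fold with no length scaling and 145-fold with principal transcripts, a length chosen after seeing the data, against 337-fold. The cause was not tested.

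Same-numbered libraries did not deviate together (correlations of at most 0.066), so the numbers were not taken as pairs. With the replicate block by title number, the members called were 6 in KO and 6 in WT for DMXAA, 8 for KO over WT under DMXAA, 1 under DMSO and 4 for the interaction, which lost Ctsb (adjusted p = 0.0543). With the block by library numeral they were 7 in KO and 6 in WT for DMXAA. In the fits without a block, 66.6% of all genes were called in KO and 62.8% in WT for DMXAA. For KO over WT the shares were 21.5% under DMXAA and 16.6% under DMSO, and for the interaction 8.6%. Each member was counted at 6784 reads or more in every library. The limits are 3 libraries per group, 1 time point and transcript levels in place of enzyme activity.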
